A study of Mus musculus with 6 samples.

Results

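Uninjured mouse muscle was compared between ZT16 and ZT4 in 3 groups of cell barcodes that each library contains. ZT is zeitgeber time, which by convention counts hours from lights on, with the light schedule not given in the sources used here. The study examines the circadian clock in muscle repair, and its 6 libraries hold mononucleated cells of wildtype mice taken on day 0, 1 and 3 of injury at ZT4 and ZT16. The cells came from the tibialis anterior of both hindlimbs, were sorted as single cells without those stained by propidium iodide, and went through droplet-based 3′ sequencing with unique molecular identifiers (UMIs). Both groups used here are day 0, which is before injury, and differ in ZT. Each group is 1 library, and how many animals went into it, whether animals were pooled, and their sex and age are not given in the sources used here. With 1 library a group there is no replicate spread and no test: a difference below is between these libraries, ZT and library cannot be told apart, and every interval is a 95% interval that covers counting error only.

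Barcodes were kept with at least 500 UMIs, at least 200 genes and at most 10% mitochondrial UMIs. The Ptprc set has at least 1 UMI of Ptprc, which encodes the leukocyte antigen CD45. The Pecam1 set has at least 1 UMI of Pecam1, the endothelial adhesion molecule CD31, and none of Ptprc. The Pdgfra set has at least 1 UMI of Pdgfra, the growth factor receptor of fibro-adipogenic stromal cells, and none of both others. The 3 sets hold 14084 of the 24155 barcodes kept on day 0, and of 64032 kept in the series. At ZT4 and ZT16 the Ptprc set holds 1455 and 981 barcodes, the Pecam1 set 2728 and 3283, and the Pdgfra set 3086 and 2551. The share of kept barcodes was 12.4% (exact binomial interval 11.8 to 13%) and 7.91% (7.44 to 8.40%) in the Ptprc set, 23.2% (22.4 to 24.0%) and 26.5% (25.7 to 27.3%) in the Pecam1 set, and 26.2% (25.5 to 27.1%) and 20.6% (19.9 to 21.3%) in the Pdgfra set. A share of barcodes with a UMI depends on depth, so no order is read from these. The other 4489 and 5582 barcodes lie outside the sets.

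Depth was close between the libraries, which were deposited with 76575993 and 82114677 UMIs in 13361 and 14079 barcodes. Median UMIs per barcode at ZT4 and ZT16 were 7693 and 8949 in the Ptprc set, 3235.5 and 3694 in the Pecam1 set, and 9728.5 and 11000 in the Pdgfra set, and the libraries share 54 barcode sequences. Marker sums are given beside the set labels. The marker lists include Ptprc, Pecam1 and Pdgfra themselves, so part of each contrast was fixed by the rule and is no check of the labels. Levels are given in CPM, the UMIs of a gene scaled to 1000000 UMIs of its set and library. Summed immune markers went from 8018 to 7480.2 CPM in the Ptprc set, against 176 to 100.3 in the Pecam1 set and 45.2 to 33.5 in the Pdgfra set. Summed endothelial markers went from 9425 to 8053 in the Pecam1 set, against 299.8 to 273 and 125 to 115 in the Ptprc and Pdgfra sets. Summed fibro-adipogenic markers went from 84521 to 81886 in the Pdgfra set, but 5737 to 6233 in the Ptprc set and 12236 to 9150.0 in the Pecam1 set also carry stromal transcripts. The sets are therefore groups of barcodes and not pure cell types. Exactly 1 UMI of the set marker decided 26.7% and 26.4% of the Ptprc barcodes, 27.9% and 25.7% of the Pecam1 barcodes, and 9.43% and 9.76% of the Pdgfra barcodes. Of the Ptprc set, 15.0% and 13.4% also held a Pecam1 or Pdgfra UMI. In such sums, fewer cells of a kind and less RNA per cell cannot be told apart.

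The clock of mammalian cells is a loop of transcription and repression. ARNTL (also BMAL1) pairs with CLOCK or NPAS2, binds E-boxes, and activates the Per and Cry genes, whose proteins return to block the pair. A second loop runs through the nuclear receptors NR1D1 and NR1D2, which repress Arntl at ROR elements, and RORA, which activates it. DBP, TEF, HLF and the repressor NFIL3 carry the rhythm onward through D-boxes, and adrenal glucocorticoids pass timing from the brain's clock to cells throughout the body.

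The windows that follow show where such elements lie before a RefSeq transcript start of genes that differed the same way in all 3 sets. A gene can have several such starts. For Per1 and Fkbp5 the start used lies inside the gene span given below. The windows come from RefSeq promoters on GRCm38.p6, which matched 57 of the 74 genes higher at ZT16 and 26 of the 36 lower ones. Per2 and Wee1 had no entry. Capitals mark the element, and each run reads 5′ to 3′ along the gene's own strand.
Per1, E-box, chr11:69098729-69098808 (+): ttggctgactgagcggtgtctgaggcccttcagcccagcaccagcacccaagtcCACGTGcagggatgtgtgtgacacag
Cry1, E-box, chr10:85185089-85185168 (-): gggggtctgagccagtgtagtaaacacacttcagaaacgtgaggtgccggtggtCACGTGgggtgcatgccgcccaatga
Tef, E-box, chr15:81802492-81802571 (+): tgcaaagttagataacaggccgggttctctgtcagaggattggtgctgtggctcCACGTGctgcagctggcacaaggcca
Fkbp5, E-box, chr17:28486293-28486372 (-): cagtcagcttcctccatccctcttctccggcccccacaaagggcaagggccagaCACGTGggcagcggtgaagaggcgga
Per3, a pair of D-boxes, chr4:151044796-151044875 (-): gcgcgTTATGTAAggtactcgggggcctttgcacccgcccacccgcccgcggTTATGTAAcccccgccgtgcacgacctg
Leo1, ROR element, chr9:75441408-75441487 (+): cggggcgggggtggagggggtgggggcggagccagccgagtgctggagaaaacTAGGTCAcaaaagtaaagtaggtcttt

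The E-box was searched as CACGTG, which reads the same on both strands, from 250 bases before to 50 after each start. It occurs in 11 of the 57 matched genes higher at ZT16 (19.3%), in 2 of the 26 lower ones (7.69%), and in 8.09% of the 27025 genes in the table. The 11 are Abca1, Adh1, Bhlhe41, Cry1, Fkbp5, Hsph1, Irs1, Per1, Pgm2l1, Rev1 and Tef. The ROR element (TAGGTCA or TGACCTA) occurs in 3 of the 26 lower genes, Arntl, Leo1 and 1700096K18Rik, and in 2.97% of all genes. The D-box (TTATGTAA or TTACATAA) occurs in 1.11% of all genes and, among those higher at ZT16, in Per3. These letters are a description of the windows and not evidence of binding.

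Differences were read as follows. UMIs of each gene were summed per set and library and divided by the set's total, which gives a level in CPM. Where 3 values follow a gene without a set name, they belong to the Ptprc, Pecam1 and Pdgfra sets in that order, "a to b" gives the level at ZT4 and ZT16, and a single signed value is the log2 ratio of ZT16 to ZT4. A gene was measured in a set with at least 100 UMIs over both libraries, and counted as shifted at 1.5-fold or more, which is a log2 ratio of 0.58. In the Ptprc set 390 of 10419 measured genes were shifted higher at ZT16 (3.74%) and 344 lower (3.3%). In the Pecam1 set 374 of 10737 were higher (3.48%) and 819 lower (7.63%), and in the Pdgfra set 811 of 11881 were higher (6.83%) and 458 lower (3.85%). The share of shifted genes that was higher was 53.1%, 31.3% and 63.9% in the 3 sets. The median measured gene sat at log2 0.03, -0.10 and 0.07, and with the ratios centred on it those shares became 47.4%, 48.5% and 53.3%. The lean to lower genes in the Pecam1 set and to higher genes in the Pdgfra set was thus smaller after centring.

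Of 9352 genes measured in all 3 sets, 7859 were shifted in none, 1114 in 1, 266 in 2 and 113 in 3. In all 3 sets 74 were higher at ZT16 (0.791%) and 36 were lower (0.385%). Ranked by the smallest shift over the sets, Per2 led the higher genes and Arntl the lower ones, and glucocorticoid-induced genes were among the higher ones.

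Arntl, on chr7:113207465-113314126, encodes an activator of the loop, and its smallest shift over the sets was the largest among the lower genes. Coordinates here and below are on GRCm38. Its level went from 24.6 to 4.54 CPM in the Ptprc set (log2 -2.43, interval -2.92 to -1.99), from 22.2 to 3.95 in the Pecam1 set (log2 -2.49, interval -2.93 to -2.08) and from 33.4 to 3.11 in the Pdgfra set (log2 -3.42, interval -3.76 to -3.11). All 3 sets were high at ZT4 and low at ZT16. Npas2, an alternative partner to Clock, was measured in the Pdgfra set alone, where it went from 22.9 to 1.39 (log2 -4.02, interval -4.54 to -3.57). It had 17 and 1 UMIs in the Ptprc set and 53 and 6 in the Pecam1 set, lower at ZT16 there too but under the minimum. Clock itself stayed within 1.5-fold, with log2 ratios of 0.14, -0.26 and -0.28. Arntl2, measured in the Pdgfra set alone, was at -0.10.

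Per2, on chr1:91415982-91459324, encodes a repressor of the loop and had the largest smallest shift of all higher genes. Its level went from 1.54 to 31.8 in the Ptprc set (log2 4.33, interval 3.72 to 5.10), from 1.80 to 27.0 in the Pecam1 set (log2 3.87, interval 3.26 to 4.63) and from 1.96 to 51.7 in the Pdgfra set (log2 4.71, interval 4.34 to 5.12). These rest on 20 and 315, 20 and 403 and 59 and 1447 UMIs at ZT4 and ZT16. Per1, on chr11:69095217-69109960, was already present at ZT4 and shifted less: it went from 30.8 to 62.4 (1.02 in log2), 14.0 to 42.7 (1.61) and 18.3 to 36.6 (1.002) in the same order of sets. Per3, on chr4:151003652-151044665, went from 13.1 to 36.9 (1.49), 25.7 to 55.0 (1.10) and 27.4 to 132 (2.26).

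Cry1, on chr10:85131700-85185064, went from 3.77 to 16.8 in the Ptprc set (log2 2.15, interval 1.69 to 2.65), from 6.03 to 28.2 in the Pecam1 set (log2 2.22, interval 1.85 to 2.62) and from 7.15 to 20.2 in the Pdgfra set (log2 1.49, interval 1.27 to 1.73). Cry2 differed by set, with log2 1.27 in the Ptprc set, 0.62 in the Pecam1 set and 0.24 in the Pdgfra set, so it was not among the genes shifted in all 3. Ciart, a further repressor, was measured in the Pdgfra set alone and went from 0.266 to 3.43 (log2 3.61, interval 2.65 to 4.94). Ciart reached the minimum of UMIs there through ZT16, so its call as higher says little. The Pdgfra count and median that follow include Ciart. Per2 in every set, and Cry1 in the Ptprc and Pecam1 sets, also had under 100 UMIs at ZT4. The list counts and medians that follow are thus partly set by the minimum of UMIs. Of the 6 repressors in the list, 5 of 5 measured were higher in the Ptprc set, 5 of 5 in the Pecam1 set and 5 of 6 in the Pdgfra set (3.74%, 3.48% and 6.83% of all measured genes were), and the medians were 1.49, 1.61 and 1.88 against 0.03, -0.10 and 0.07 over all measured genes.

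**Figure D1:**
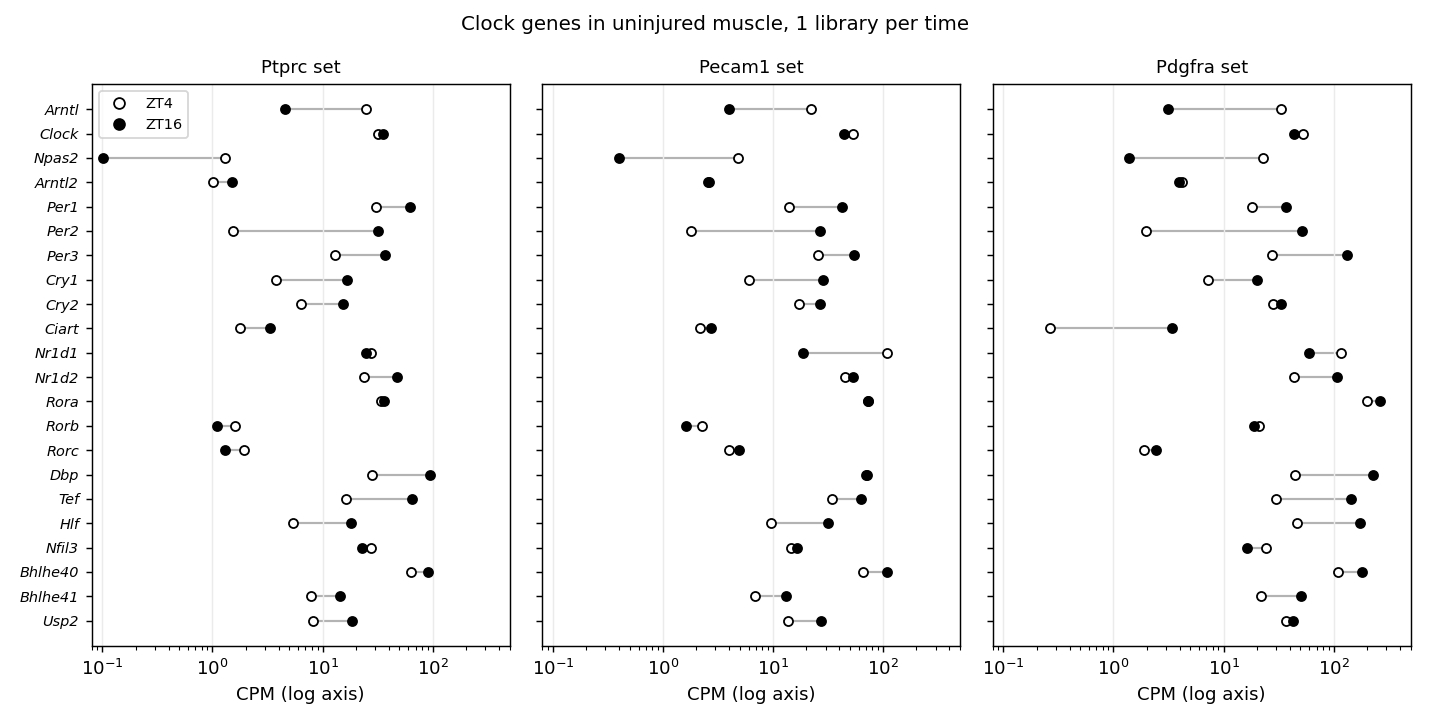
Levels of 22 clock genes in CPM on a log axis, at ZT4 (open) and ZT16 (filled), in the Ptprc, Pecam1 and Pdgfra sets, 1 library per time. Arntl lies lower and Per2 and Cry1 lie higher at ZT16 in every panel, whereas Nr1d1 and Dbp differ between panels.

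The nuclear receptors did not move together. Nr1d1, on chr11:98767932-98775333, went from 108 to 18.7 in the Pecam1 set (log2 -2.54, interval -2.73 to -2.35) and from 118 to 59.97 in the Pdgfra set (log2 -0.98, interval -1.06 to -0.89), but from 27.6 to 24.6 in the Ptprc set (log2 -0.17, interval -0.41 to 0.07). It was thus shifted lower in 2 sets and within 1.5-fold in the third. Its paralog Nr1d2 was higher in the Ptprc set (24.0 to 47.2, log2 0.97) and in the Pdgfra set (43.4 to 107, 1.31), and was at 0.25 in the Pecam1 set. Rora, the activating receptor, stayed within 1.5-fold at 0.08, 0.00 and 0.39. With an estimate of free RNA subtracted, Nr1d1 in the Ptprc set came to 1.62 and in the Pecam1 set to -6.35. That estimate takes its profile from the sum of all deposited barcodes of a library, which are called cells, and not from empty droplets. It is scaled as if all mature fibre UMIs of a set were free, and so also removes transcripts of the set's own cells. On these terms 24.1% and 19.3% of the UMIs were subtracted in the Ptprc set at ZT4 and ZT16. In the Pecam1 set 50.3% and 48.1% were, and these are not measured shares of free RNA. The call for Nr1d1 in the Ptprc set thus depends on this setting.

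Among output genes, Dbp, on chr7:45705088-45710203, split the sets. It went from 27.9 to 94.9 in the Ptprc set (log2 1.76, interval 1.59 to 1.94) and from 45.0 to 226 in the Pdgfra set (log2 2.33, interval 2.25 to 2.42), but from 71.8 to 69.2 in the Pecam1 set (log2 -0.05, interval -0.19 to 0.08). The Pecam1 value ranged from -10.32 with free RNA subtracted to 0.35 in a Pecam1 set narrowed by leaving out barcodes with venous, arterial or lymphatic markers. Tef was shifted higher in all 3 sets, from 16.4 to 64.6 (1.98), 34.5 to 62.5 (0.86) and 29.98 to 144 (2.27), and its Pecam1 value turned to -0.25 with free RNA subtracted. Hlf was also higher in all 3, at 1.75, 1.72 and 1.90, with 10.7% of its Pdgfra level in the Ptprc set. Bhlhe41, a repressor of E-box transcription, was higher at 0.87, 0.92 and 1.195. Its relative Bhlhe40 was at 0.51, 0.70 and 0.72, short of the fold in the Ptprc set. The deubiquitinase gene Usp2 was at 1.18, 1.01 and 0.20, and Nfil3 at -0.29, 0.19 and -0.59. Across the 7 output genes, 5 were higher in each set, though not the same ones, against 3.74%, 3.48% and 6.83% of all measured genes. Nfil3 was lower in the Pdgfra set, where 3.85% of all measured genes were.

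Tsc22d3 and Fkbp5, which glucocorticoids induce, were higher in all 3 sets. Tsc22d3, on chrX:140539528-140600659, encodes the anti-inflammatory protein GILZ. It went from 157 to 344 in the Ptprc set (log2 1.13, interval 1.05 to 1.21), from 119 to 385 in the Pecam1 set (log2 1.69, interval 1.60 to 1.78) and from 115 to 418 in the Pdgfra set (log2 1.86, interval 1.80 to 1.91), with the lowest set at 94.0% of the highest. Fkbp5, on chr17:28399094-28517527, a cochaperone of the glucocorticoid receptor, went from 7.77 to 32.9 (2.08), 5.67 to 17.6 (1.62) and 20.6 to 74.3 (1.85). Other members did not follow in every set. Zbtb16, a zinc-finger repressor, was at 0.08, 1.42 and 1.07. The kinase gene Sgk1 was at 0.58, 0.76 and 0.73, just under the fold in the Ptprc set. Klf9 was at 0.75, 0.87 and 0.31. The receptor gene Nr3c1 stayed at 0.11, -0.22 and -0.08. Of the 18 members, 3 of 17 measured were higher in the Ptprc set, 7 of 18 in the Pecam1 set, and 6 of 18 higher with 2 lower in the Pdgfra set, where Cdkn1a was at -1.36 and the metallothionein gene Mt1 at -0.60. Of all measured genes 3.74%, 3.48% and 6.83% were higher in the 3 sets and 3.85% lower in the Pdgfra set. The list medians were 0.29, 0.33 and 0.20.

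Beyond these, the 12 genes per direction with the largest smallest shift included Hist1h2ap, a histone gene, at 1.79, 2.40 and 4.98. Pclaf, a partner of the replication clamp, was at 1.74, 1.86 and 3.45. Neither Hist1h2ap nor Pclaf remained among these genes without barcodes that hold at least 3 UMIs of G2 and M phase genes. Hist1h2ap was at 0.46 in the Ptprc set then. Pclaf fell under the minimum of UMIs in the Pecam1 set, so it was not measured there. The sterol exporter gene Abcg1 was at 1.58, 1.65 and 2.92, and the flavin monooxygenase gene Fmo2 at 1.78, 1.43 and 3.06. Actc1 and Myl3, which encode contractile proteins of muscle fibres, were at 1.90, 1.64 and 1.62, and at 2.19, 2.69 and 1.47. Both were highest outside the sets, and the lowest set held 9.91% and 5.10% of that level. Beside them, summed mature fibre markers went from 8099.8 to 8342 in the Ptprc set, 16913 to 20838 in the Pecam1 set and 6601 to 9471 in the Pdgfra set, and their part in the result was not tested. Angptl7 was at 3.26, 2.43 and 2.76, but 1 barcode held 50.1% of its ZT16 UMIs in the Ptprc set and 73.6% in the Pecam1 set. Of the UMIs of Hist1h2ap, Pclaf, Fmo2, Actc1 and Myl3 too, 1 barcode held over 10% at ZT4 or ZT16 in at least 1 set. Cys1 was at 1.96, 1.58 and 1.56.

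Among the lower genes, Cirbp, on chr10:80165985-80172786, encodes an RNA-binding protein that cold induces and that follows body temperature. Its level went from 96.6 to 40.6 (log2 -1.25, interval -1.42 to -1.09), 153 to 44.8 (log2 -1.77, interval -1.90 to -1.64) and 99.2 to 39.1 (log2 -1.34, interval -1.44 to -1.24). Rbm3, the other cold-inducible RNA-binding gene of the list, was at -0.14, -0.67 and -0.16. Of the 15 genes of cold response and splicing 1, 3 and 1 were lower in the 3 sets, against 3.3%, 7.63% and 3.85% of all measured genes. With 15 genes, a count of 1 is not read as a result about the list. Ddx60, an interferon-induced helicase gene, was at -1.45, -1.40 and -0.999. Zc3h6 was at -1.002, -2.05 and -1.22.

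Several lower genes are stromal by level. The matrix protease gene Adamts5 was at -1.03, -1.68 and -1.16, and Fst, which encodes the activin and myostatin binder follistatin, at -1.17, -1.44 and -1.33. Arhgap20, Efhd1, Igsf10 and Sema5a ranged from -2.04 to -1.02 over the sets. All 6 were highest in the Pdgfra set and held 5.02% to 9.10% of that level in the Ptprc set. The tight junction gene Cldn5 was at -1.36, -1.61 and -1.59, and its level in the Ptprc and Pdgfra sets was 2.47% and 0.303% of that in the Pecam1 set. Hpgd, a prostaglandin-degrading enzyme gene, was at -0.95, -1.66 and -3.43, and 1 barcode held 54.5% of its Pecam1 UMIs at ZT16. The part of mixed barcodes and of free RNA in these low values was not tested.

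**Figure D2:**
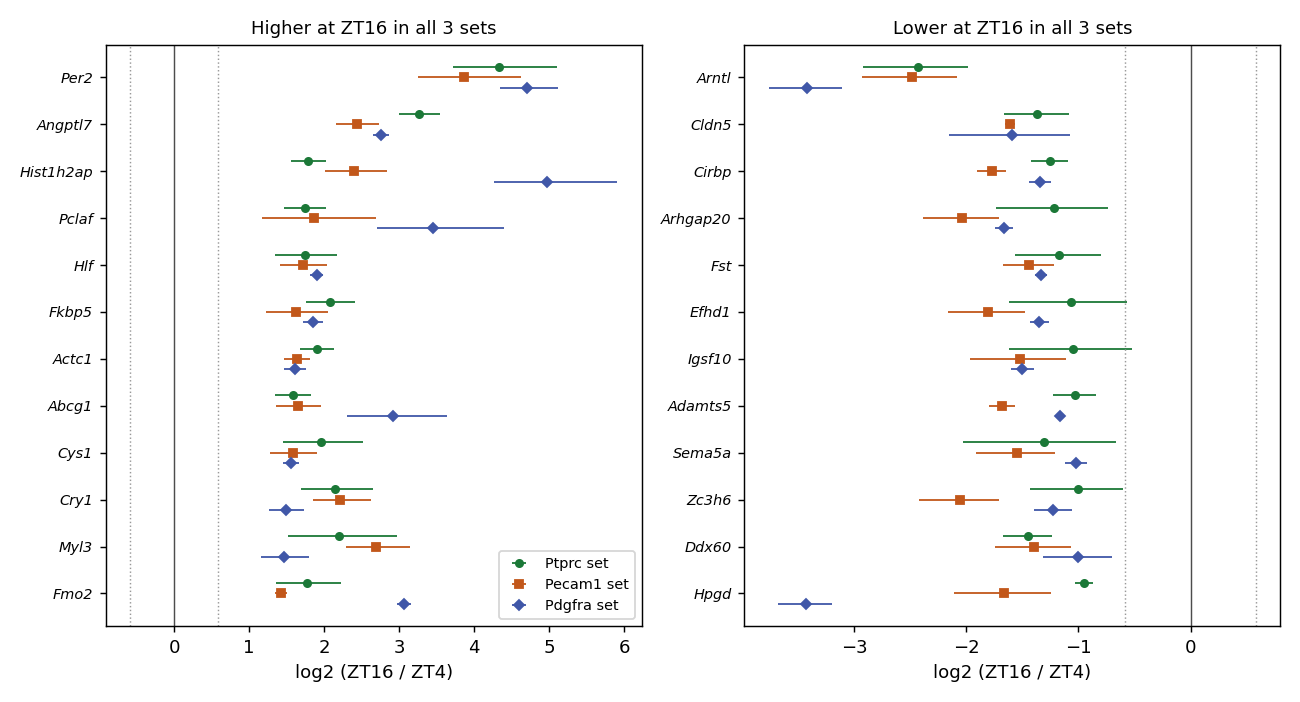
Log2 ratio of ZT16 to ZT4 with its 95% counting interval for the 12 higher and 12 lower genes with the largest smallest shift, in the Ptprc (circles), Pecam1 (squares) and Pdgfra (diamonds) sets. Dotted lines mark 1.5-fold, and all 72 points lie beyond them.

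Levels therefore divide the 110 genes, by a split chosen after their values were seen. Of the 74 higher genes, 24 reached at least 25% of their highest level in every set, 23 had a set at 10 to 25%, and 27 had a set under 10%. Of the 36 lower genes the counts were 12, 6 and 18. Barcodes outside the sets, which the rule did not use but which come from the same libraries, moved the same way by 1.5-fold for 50 of the 74 (405 of 12032 genes were higher there, 3.37%) and for 29 of the 36 (830 were lower, 6.9%). The sign was the same for 72 and 36. For Arntl the level outside the sets went from 13.6 to 2.91, and for Per2 from 2.09 to 20.8.

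The 15 genes that follow remained shifted in all 3 sets under each of 4 stricter treatments of the sets. These were at least 2 UMIs of the marker, no UMI of another set's marker, doublets removed, and free RNA subtracted. This combination was chosen after the data were seen. The free RNA profile was that of all deposited barcodes, with the limit given for Nr1d1. The 10 higher genes were Per2, Per1, Cry1, Tsc22d3, Wee1, Hsph1, Stip1, Ahsa2, Abca1 and Sult1a1, and the 5 lower genes were Arntl, Cirbp, Ddx60, Leo1 and Zc3h6. Wee1, on chr7:110122046-110143286, encodes a kinase that holds back mitosis. It went from 5.46 to 14.6 in the Ptprc set (log2 1.42, interval 1.002 to 1.85), from 8.64 to 28.4 in the Pecam1 set (log2 1.71, interval 1.39 to 2.05) and from 6.16 to 25.1 in the Pdgfra set (log2 2.03, interval 1.79 to 2.27). Every set was lower at ZT4, and the Wee1 levels of the 3 sets were of the same order. Hsph1, Stip1 and Ahsa2 encode chaperones and cochaperones. Hsph1, on chr5:149614287-149636376, went from 30.9 to 71.5 (1.21), 21.3 to 44.9 (1.07) and 40.9 to 83.1 (1.02). Stip1 was at 0.86, 1.05 and 0.70, and Ahsa2 at 0.78, 1.14 and 0.81. The cholesterol exporter gene Abca1 was at 0.75, 0.80 and 1.33, the sulfotransferase gene Sult1a1 at 0.80, 0.71 and 1.56, and Leo1, a subunit of a transcription elongation complex, at -0.85, -0.88 and -0.99. Over all settings with a value, Per2 ranged from 3.54 to 4.83 and Arntl from -3.53 to -2.10 across the 3 sets.

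**Figure D3:**
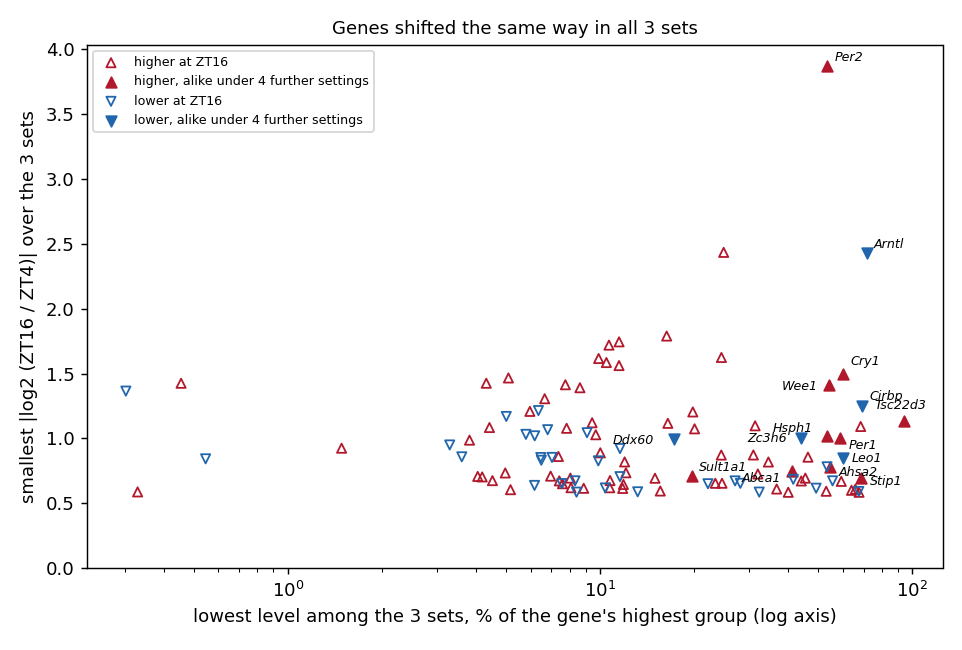
Each point is 1 of the 110 genes shifted the same way in all 3 sets, by its lowest level among the sets in percent of its highest group (log axis) and its smallest absolute log2 ratio. Filled points are the 15 genes that remained under 4 stricter treatments of the sets. Arntl, Per2, Cry1 and Tsc22d3 lie at the right, where all sets have comparable levels.

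Genes were also counted where 1 set was shifted and both others lay under 1.2-fold with counting intervals inside 1.5-fold. The difference between the sets was not tested. There were 58 such genes for the Ptprc set (0.62% of 9352), 42 higher and 16 lower at ZT16. The Pecam1 set had 152 (1.63%), 20 higher and 132 lower, and the Pdgfra set had 88 (0.941%), 57 higher and 31 lower. In the shifted set, 14 of the 58, 7 of the 152 and 11 of the 88 were under 10% of their highest level.

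In the Ptprc set, Man2a1, a mannosidase gene of glycan processing, went from 49.6 to 98.4 (log2 0.99, interval 0.84 to 1.13), against 0.13 in the Pecam1 set and 0.09 in the Pdgfra set. St3gal6, a sialyltransferase gene, went from 93.1 to 39.9 (log2 -1.22, interval -1.39 to -1.06), against 0.03 and -0.17. Both stood at over 80% of their highest level in the Ptprc set. Fam214a was at -1.19 against 0.08 and -0.08, and the scavenger receptor gene Cd36, with 518 to 269.8 CPM, at -0.94 against -0.21 and -0.06. Mical2, the phosphatase gene Dusp5 and the choline transporter-like gene Slc44a2 were at -0.91, -0.72 and -0.71. Of the 6 leading higher genes 5 were low here: Tnfaip6 (1.24), Gucy1b1 (1.22), Cxcl14 (1.202), Rgs5 (1.06) and Rragd (0.96) stood at 8.005% to 11.3% of their highest level. Cxcl14 was at -0.02 without barcodes that hold another set's marker, and Rgs5 at -0.57 with doublets removed. Beside Rgs5, a pericyte gene, 5 of 9 mural markers were shifted higher in the Ptprc set (3.74% of all measured genes were), with a sum from 212 to 388, and their part was not tested. With at least 2 marker UMIs 25 of the 58 genes still met the rule, and with free RNA subtracted 4 did.

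Summed markers of some immune cell types in the Ptprc set also differed between the libraries. Fewer cells and less RNA per cell cannot be told apart in these sums. All 6 B cell markers were shifted lower at ZT16 (sum 891 to 372), as were 5 of 6 measured T cell markers (sum 175 to 82.2) and 3 of 3 NK cell markers (sum 135 to 37.4), against 3.3% of all measured genes. Lower too were 3 of 6 monocyte, 2 of 6 neutrophil and 1 of 5 measured mast cell markers, and none of 10 dendritic cell markers was shifted. Of 11 macrophage markers, 2 were higher, against 3.74% of all measured genes, and none was lower (sum 10940.3 to 13157). The 7 MHC class II genes stayed within 1.5-fold in the Ptprc set (sum 34198 to 31986, median -0.07).

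In the Pecam1 set, the leading genes higher there and flat elsewhere included Rhob, a small GTPase gene. Rhob went from 370.2 to 639 (log2 0.79, interval 0.73 to 0.84), against 0.10 in the Ptprc set and 0.07 in the Pdgfra set. The forkhead gene Foxn2 was at 0.90, the excision repair gene Ercc1 at 0.85, Dusp8 at 0.83 and Phyhd1 at 0.77. Among lower genes, the homeobox gene Hlx went from 77.4 to 35.0 (log2 -1.14, interval -1.30 to -0.98), against -0.04 and -0.01, and the tyrosine sulfotransferase gene Tpst1 from 75.6 to 35.2 (log2 -1.10, interval -1.26 to -0.94), against 0.13 and -0.05. Ifi27l2a was at -1.13, and Trf, Snx30 and Rab32 at -1.18, -1.12 and -1.11 with 2.95% to 12.3% of their Ptprc level. Of the 152 genes, 100 still met the rule with at least 2 marker UMIs and 63 with free RNA subtracted.

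Immune transcripts were lower in the Pecam1 set at ZT16. Its MHC class II sum went from 434 to 80.4 and all 5 measured members were lower, with Cd74 from 231 to 38.0 at 0.826% of its Ptprc level. Of the measured immune markers 6 of 8 were lower too (sum 176 to 100.3), as were 7 of 18 chemokine and cytokine genes and 5 of 16 interferon response genes, in a set where 7.63% of all measured genes were lower. Among the interferon genes, Oasl2 was at -0.93 and Rtp4 at -0.90, and both were highest in the Pecam1 set. The part of leukocyte RNA in these values was not tested.

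**Figure D4:**
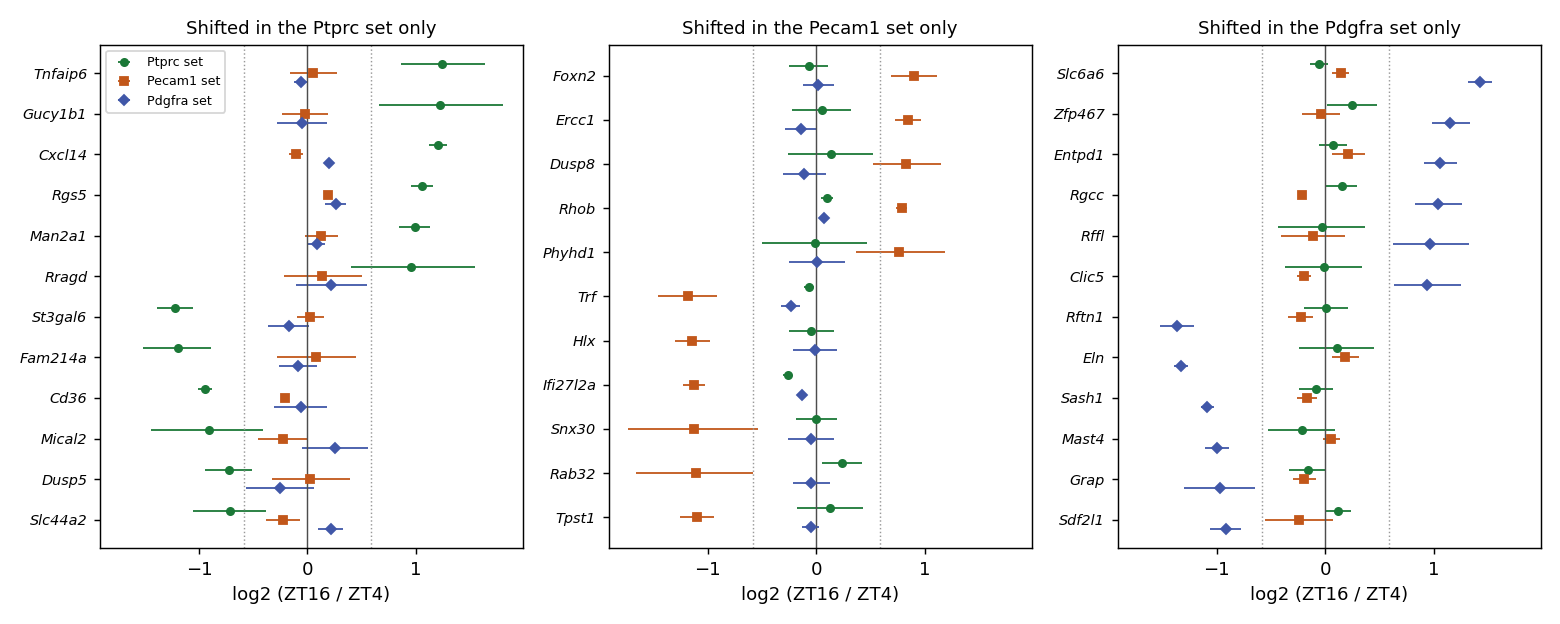
Log2 ratio of ZT16 to ZT4 with its 95% counting interval for the leading genes shifted in 1 set and under 1.2-fold in both others, 11 or 12 per set, in the Ptprc (circles), Pecam1 (squares) and Pdgfra (diamonds) sets. Dotted lines mark 1.5-fold. In each panel the points of 2 sets lie near 0 and those of the named set lie beyond the dotted line.

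In the Pdgfra set, the taurine transporter gene Slc6a6 went from 31.9 to 85.8 (log2 1.43, interval 1.32 to 1.54), against -0.06 in the Ptprc set and 0.14 in the Pecam1 set. Entpd1, which encodes the ATP-hydrolysing enzyme CD39, had 541 and 1051 UMIs (log2 1.06, interval 0.91 to 1.21), against 0.07 and 0.21, and Zfp467 from 13.3 to 29.6 (log2 1.16, interval 0.98 to 1.33), against 0.25 and -0.04. Rffl was at 0.97. Rgcc and Clic5, at 1.04 and 0.94, stood at 1.14% and 2.17% of their Pecam1 level. Among lower genes, Eln, which encodes elastin, went from 232 to 92.4 (log2 -1.33, interval -1.39 to -1.26), against 0.11 and 0.19. The membrane raft gene Rftn1 went from 41.6 to 16.1 (log2 -1.37, interval -1.53 to -1.21), and Sash1 from 276 to 129.98 (log2 -1.09, interval -1.14 to -1.03). Mast4, Grap and the endoplasmic reticulum gene Sdf2l1 were at -0.996, -0.97 and -0.91. Of the 88 genes, 58 still met the rule with at least 2 marker UMIs and 31 with free RNA subtracted. Beside these values, 6 of 6 measured tenocyte markers were shifted higher in the Pdgfra set (sum 115 to 299.6) and 7 of 15 mature fibre markers were too, against 6.83% of all measured genes.

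Lpl and Cdkn1a went opposite ways in 2 sets, among 37 genes that did so. Lpl, on chr8:68880491-68907448, encodes lipoprotein lipase, which frees fatty acids from circulating triglycerides. It went from 507 to 2132 in the Pecam1 set (log2 2.07, interval 2.03 to 2.11), from 724 to 369.8 in the Ptprc set (log2 -0.97, interval -1.02 to -0.91) and from 1160.0 to 844 in the Pdgfra set (log2 -0.46, interval -0.48 to -0.43). The Pecam1 set thus passed from the lowest of the 3 at ZT4 to the highest at ZT16, and over all settings its log2 ratio ranged from 1.89 to 3.50. Cdkn1a, the cell cycle inhibitor gene, went from 235 to 357 in the Pecam1 set (log2 0.60, interval 0.53 to 0.67), from 119.9 to 46.8 in the Pdgfra set (log2 -1.36, interval -1.45 to -1.27) and from 259 to 284 in the Ptprc set (log2 0.13, interval 0.06 to 0.21). Angptl4, which encodes an inhibitor of lipoprotein lipase, was lower in the Pecam1 set, from 19.5 to 4.41 (log2 -2.13, interval -2.56 to -1.74), and in the Pdgfra set, from 24.4 to 1.72 (log2 -3.82, interval -4.28 to -3.41).

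The 6 genes with the widest gap between sets were Cpa3, Mcpt4, Cma1, Wif1, Hbb-bt and Hbb-bs, and in several groups a single barcode held most of the UMIs. For the mast cell protease genes Cpa3, Mcpt4 and Cma1, 1 barcode held 93.1% to 94.8% of the ZT16 UMIs in the Pecam1 set and 83.1% to 90.0% of the ZT4 UMIs in the Pdgfra set. For the haemoglobin genes Hbb-bt and Hbb-bs, 1 barcode held 96.2% and 98.2% at ZT16 in the Ptprc set and 97.7% and 96.1% in the Pdgfra set. Wif1, a Wnt inhibitor gene, went from 1.10 to 11.9 in the Pdgfra set (3.41) and from 6.84 to 2.54 in the Pecam1 set (-1.42), where 1 barcode held 59.2% and 55.3%.

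Most sterol synthesis genes were lower at ZT16 in the Pdgfra and Pecam1 sets, and few in the Ptprc set. In the Pdgfra set 15 of 16 measured members were lower (3.85% of all measured genes were), with a median of -1.61 and a sum from 904 to 337. In the Pecam1 set 10 of 15 were lower (7.63% of all, median -0.72, sum 409.9 to 237), and in the Ptprc set 1 of 15 (3.3% of all, median -0.27, sum 515 to 439). Sqle, which encodes squalene epoxidase, an early enzyme of the sterol branch, went from 42.1 to 8.54 in the Pdgfra set (log2 -2.30, interval -2.51 to -2.10), from 9.09 to 2.14 in the Pecam1 set (log2 -2.07, interval -2.71 to -1.50) and from 14.8 to 9.38 in the Ptprc set (log2 -0.65, interval -1.03 to -0.29). The isoprenoid enzyme genes Fdps and Idi1 were at -2.09 and -1.90 in the Pdgfra set, and at -0.56 and -1.32 in the Pecam1 set. Hmgcs1, which makes the precursor of mevalonate, went from 106 to 41.2 in the Pdgfra set (log2 -1.37, interval -1.47 to -1.27). Its RefSeq promoter holds a sterol element, TCACCCCAC, printed as the only match in the list: 1 of its 9 matched members holds it in either direction (TCACCCCAC or GTGGGGTGA), and so do 0.614% of all genes in the table.
Hmgcs1, sterol element, chr13:119690163-119690242 (+): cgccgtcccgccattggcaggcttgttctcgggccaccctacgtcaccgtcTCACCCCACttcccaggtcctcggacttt

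Heat shock genes leaned the other way. Of 18 members, 6 were higher in the Ptprc set (3.74% of all measured genes were, list median 0.34), 11 in the Pecam1 set (3.48%, median 0.61) and 4 in the Pdgfra set (6.83%, median 0.33), and none was lower. Hspa8, the constitutive chaperone gene, went from 1764 to 2756 (0.64), 1459 to 2679.9 (0.88) and 1385 to 1739 (0.33). Chordc1, a cochaperone gene, was just past the fold in each set at 0.59, 0.67 and 0.59, and Fkbp4 just short of it in the Pdgfra set at 0.57. A heat shock element, searched as GAANNTTCNNGAA or TTCNNGAANNTTC, lies in the windows of 4 of 15 matched members, Chordc1, Hspd1, Hspe1 and Hsph1, and of 0.662% of all genes. The 17 folding genes of the endoplasmic reticulum had 2 lower members in the Pdgfra set, where 3.85% of all measured genes were lower, and no other shifted member.

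The summed level of genes of G2 and M phase was higher at ZT16 in every set. The sum of 18 members went from 109.7 to 233 in the Ptprc set, 20.4 to 76.4 in the Pecam1 set and 11.3 to 68.3 in the Pdgfra set. Only 14, 5 and 10 of the 18 were measured in the 3 sets, and in the Pecam1 and Pdgfra sets most of them reached 100 UMIs through ZT16, so a count of those higher says nothing there. In the Ptprc set 13 of the 14 were higher, against 3.74% of all measured genes. Mki67, a marker of cycling cells, went from 17.5 to 36.2 (log2 1.05, interval 0.81 to 1.30) in the Ptprc set and, on 3 and 214 UMIs, from 0.0998 to 7.65 (log2 6.04, interval 4.69 to 8.55) in the Pdgfra set. Few barcodes carried these genes: 34 and 56 in the Ptprc set, 5 and 14 in the Pecam1 set and 12 and 32 in the Pdgfra set held at least 3 such UMIs. S phase genes were higher for 7 of 15 members in the Ptprc set and 7 of 14 in the Pdgfra set, and for 0 of 13 in the Pecam1 set, against 3.74%, 6.83% and 3.48% of all measured genes. The list has 17 genes, and how many of those measured reached 100 UMIs through ZT16 was not counted. Without barcodes that hold 3 such UMIs, 67 genes were higher and 34 lower in all 3 sets.

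**Figure D5:**
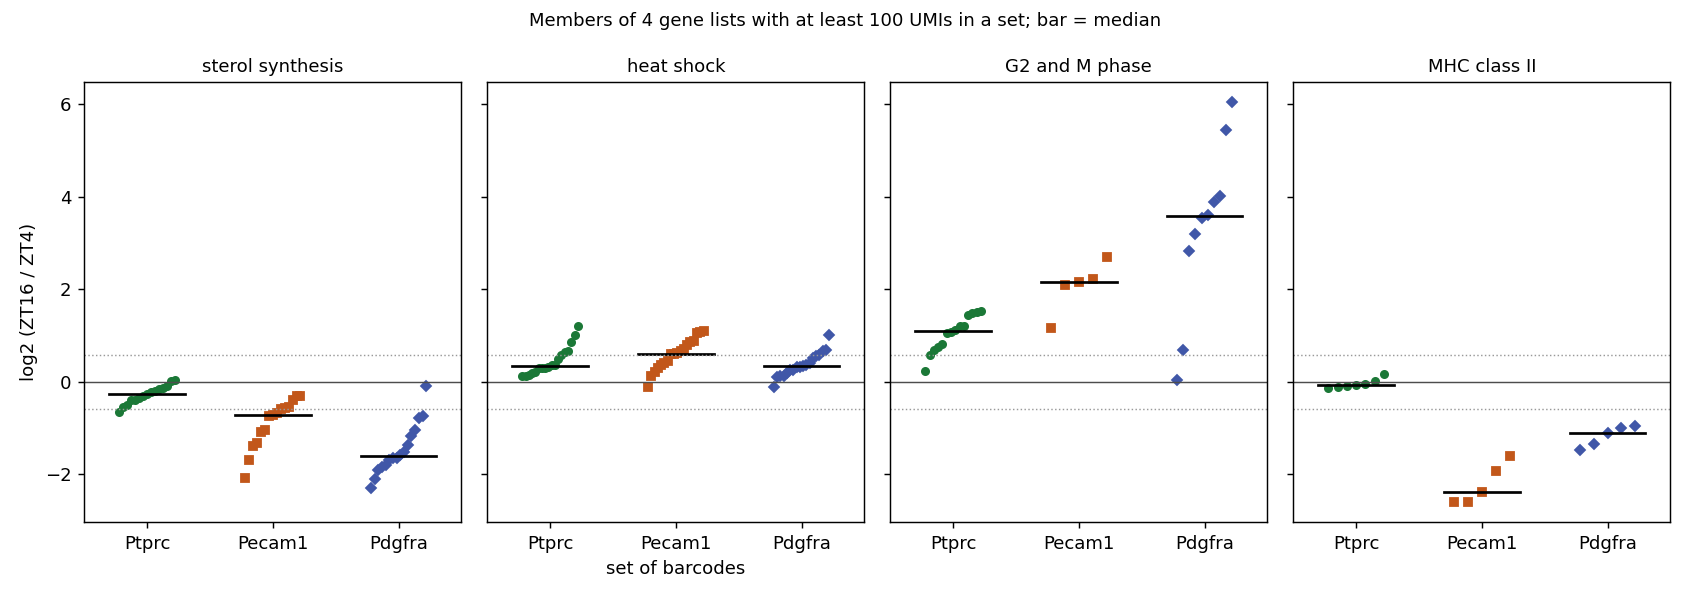
Log2 ratio of ZT16 to ZT4 of each measured member (points) and the median (bar) of 4 gene lists in the Ptprc, Pecam1 and Pdgfra sets, with dotted lines at 1.5-fold. Sterol synthesis genes lie lowest in the Pdgfra set, G2 and M phase genes lie above 0 in every set, and MHC class II genes lie near 0 in the Ptprc set.

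Immediate early genes, which respond within minutes to signals and to tissue handling, differed by set. Of 19, 5 were higher in the Pecam1 set (3.48% of all measured genes were), 1 in the Pdgfra set (6.83%) and none in the Ptprc set (3.74%), and none was lower in a set. Klf2, the flow-responsive factor gene of endothelium, went from 1696 to 3321 in the Pecam1 set (log2 0.97, interval 0.95 to 0.99), against 0.08 and -0.35, and Thbd, which encodes thrombomodulin, was at 0.79 there. Of 22 matrix genes, 18, 15 and 19 stayed within 1.5-fold in the Ptprc, Pecam1 and Pdgfra sets. In that order 3, 1 and 1 were higher, against 3.74%, 3.48% and 6.83% of all measured genes. Lower were 1, 6 and 2, against 3.3%, 7.63% and 3.85%. Among those shifted, Fbn1, which encodes fibrillin, was at -0.64, -1.70 and -1.16, and Postn, which encodes periostin, at 1.16, 0.82 and 0.85. Ccn2, a secreted growth factor-like gene, went from 4.77 to 15.7, 18.5 to 48.5 and 56.8 to 181, with log2 1.71, 1.39 and 1.67. Targets of NF-kB were lower for 4 of 13 measured genes in the Pecam1 set and for 1 of 13 in the Pdgfra set, against 7.63% and 3.85% of all measured genes, and for none of 14 in the Ptprc set. The Pdgfra share is near that of all genes. Genes of lipid use in fasting were lower for 3 of 11, 3 of 13 and 2 of 15 in the Ptprc, Pecam1 and Pdgfra sets, with 1 higher in the Pecam1 set, against 3.3%, 7.63% and 3.85% of all genes lower. Genes of vessel tone and flow were higher for 4 of 16 in the Pecam1 set and lower for 2, against 3.48% and 7.63%. None of the 4 measured sex-linked genes was shifted in a set. None of 18 oxidative phosphorylation genes was shifted in a set, none of the measured NAD and sirtuin genes was, and of 84 to 85 measured ribosomal protein genes Rpl39l alone was, in the Pdgfra set (0.81).

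The same sets after injury gave other libraries for the 110 genes, with few stromal and endothelial barcodes. On day 1 the Ptprc, Pecam1 and Pdgfra sets held 9156 and 8840, 233 and 449, and 78 and 109 barcodes in the ZT4 and the ZT16 library. On day 3 they held 7277 and 6406, 216 and 162, and 429 and 339. In the day 1 Ptprc set 16 of 54 measured genes of the higher list were again higher (5.24% of all genes were) and 7 of 30 of the lower list were lower (6.96%). In the Pecam1 set these were 7 of 26 (4.08%) and 1 of 5 (6.17%), and in the Pdgfra set 2 of 23 (5.42%) and 8 of 13 (12.2%). On day 3 the counts were 14 of 60 (2.57%) and 9 of 33 (3.17%) in the Ptprc set, 11 of 29 (7.18%) and 2 of 5 (5.15%) in the Pecam1 set, and 15 of 47 (3.32%) and 2 of 28 (2.29%) in the Pdgfra set. Shifts the opposite way were counted too. In the day 1 Pdgfra set 3 of the 23 went lower, more than the 2 that went higher, with a median of -0.04. On day 3, 4 of 29 went lower in the Pecam1 set, 4 of 47 in the Pdgfra set and 3 of 60 in the Ptprc set. For the other list and day counts, 0 or 1 gene went the opposite way.

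Per2 was higher at ZT16 in the Ptprc set on both later days, from 2.52 to 4.08 on day 1 (log2 0.69, interval 0.42 to 0.98) and from 1.09 to 3.37 on day 3 (log2 1.62, interval 1.29 to 1.97), at ratios below that of day 0. Arntl went from 4.05 to 3.83 on day 1 (log2 -0.08, interval -0.32 to 0.16) and from 6.61 to 6.38 on day 3 (log2 -0.05, interval -0.23 to 0.12), so the Ptprc sets of these days did not show the day 0 ratio. On day 1 Arntl had 12 UMIs over both libraries in the Pdgfra set (log2 -2.17, interval -4.83 to -0.31) and 6 in the Pecam1 set, all at ZT4, which is under the minimum. On day 3 the Pdgfra set gave 2.13 for Per2 and -0.09 for Arntl. Cirbp was lower in every set on both days, at -0.51, -0.83 and -0.78 on day 1 and -1.29, -1.04 and -0.996 on day 3, where the day 1 Pdgfra value rests on 96 UMIs. Tsc22d3 was higher in every set, at 0.59, 1.05 and 0.86 on day 1 and 0.48, 1.28 and 0.77 on day 3, on 97 UMIs in the day 1 Pdgfra set. In the Ptprc set, Cirbp on day 1 and Tsc22d3 on day 3 were short of 1.5-fold. No difference between days was tested.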

How the data were processed

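The deposited values are raw UMI counts per gene and barcode for 32285 genes, 1 matrix per library, with barcodes already called as cells upstream. The authors' counts were written by Cell Ranger 6.1.2 per the file headers, and mm10 with Cell Ranger 1.0.0 stands in the submitters' processing notes. Sources used here do not give the annotation release. Coordinates of 661 of 661 genes came from GENCODE vM21 (GRCm38).

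Counts were summed per set and library and divided by the set's total. The log2 ratio adds 0.5 UMI to each count. Its 95% interval is the exact conditional binomial interval of 2 Poisson counts, and UMIs bound only counting error. No test was made. The procedure was tested on simulated data. Named genes are the 12 per direction shifted in all 3 sets with the largest smallest ratio, the 6 per direction shifted in 1 set, the 6 with the widest gap, all clock and glucocorticoid genes, and at most 4 per set of the other lists. Some genes that this rule names are not reported here. Symbols of the form Gm or Rik were counted, and 1700096K18Rik is named as 1 of 3 promoter matches. Hmgcs1 and the genes that remained under 4 stricter treatments were chosen after their values were seen. The members, lists and rules were chosen with earlier results of these data known. There were 18 alternative settings, and 2 more were added after seeing the data. Python 3.11.15, numpy 2.4.6, scipy 1.17.1, pandas 2.3.3, scanpy 1.11.5 (doublet scores) and matplotlib 3.10.9 were used.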

Additional observations from a re-analysis of the deposited data

Results flagged for a closer look

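The 8 genes here stood out because they were at least 1.5-fold higher at ZT16 in 1 set and at least 1.5-fold lower in another. With 1 library per group the difference between the sets was not tested. Values are log2 ratios of ZT16 to ZT4, the highest and the lowest over the sets where the gene was measured.

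Lpl stood at 2.07 in the Pecam1 set and -0.97 in the Ptprc set, and Cdkn1a at 0.6 in the Pecam1 set and -1.36 in the Pdgfra set. No single barcode held more than 5.27% of the UMIs of these 2 genes in a set. The mast cell gene Cpa3 stood at 6.73 in the Pecam1 set and -7.55 in the Pdgfra set, Mcpt4 at 6.47 and -5.06 in the same sets, and Cma1 at 6.18 in the Pecam1 set and -0.66 in the Ptprc set. Cpa3 had 100 and 0 UMIs in the Pdgfra set, so -7.55 depends on the added 0.5 UMI, and against a floor of 3 UMIs in the ZT16 library Cpa3 was at least 31.0-fold lower. Wif1 stood at 3.41 in the Pdgfra set and -1.42 in the Pecam1 set. The haemoglobin genes stood at 0.79 and -2.8 (Hbb-bt) and at 0.64 and -2.6 (Hbb-bs), higher in the Pecam1 set and lowest in the Ptprc and Pdgfra sets respectively. The shares of single barcodes in these genes are given with the opposite genes above, and their part in the ratios was not tested.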

How the results depend on the processing

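Counts are given in the order of genes higher and lower in all 3 sets (74 and 36), genes of the Ptprc, Pecam1 and Pdgfra set alone (58, 152 and 88) and all shifted genes per set (734, 1193 and 1269). Only counts that moved by over 1.5 times are printed. Excluding barcodes with a UMI of another set's marker gave 40 and 17 genes in all sets, and removing doublets 43 and 11, with 94 for the Ptprc set alone. Thinning each barcode to 1000 UMIs gave 14, 3, 34, 33, 12, 257, 717 and 626, where fewer genes reach 100 UMIs. Weighting barcodes equally gave 248 for the Pecam1 set alone. A minimum of 30 UMIs gave 149 and 80 in all sets and 1449, 2033 and 2050 shifted. A minimum of 300 UMIs gave 33 and 11, then 26 and 96 for the Ptprc and Pecam1 sets alone, and 306, 634 and 796 shifted. A 2-fold limit gave 30, 10, 8, 9, 10, 209, 292 and 400, and a looser limit 230, 148, 114 and 307, with 2265, 3459 and 3342 shifted. Subtracting free RNA gave 16 and 6, and 435 for the Pecam1 set alone. The sets were also narrowed by leaving out barcodes with any UMI of subtype markers. These were T, B and NK cell markers in the Ptprc set and venous, arterial and lymphatic markers in the Pecam1 set. In the Pdgfra set they were tenocyte, mural and glial markers. That left 261 and 267, 717 and 715, and 75 and 53 barcodes. It gave 4 and 1 in all sets, 1 and 4 for the Ptprc and Pecam1 sets alone, and 633 and 323 shifted in the Pecam1 and Pdgfra sets. Of the 2 alternatives added after seeing the data, narrowing with fewer markers gave 16 lower genes in all sets and 56 for the Pdgfra set alone, and leaving out genes of which 1 barcode holds over 10% gave 42 higher genes. Except where the rule itself changed, the cause was not tested.

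Of 11914 log2 values of named genes and genes shifted in all 3 sets, 10484 stayed within the counting interval of the reported value, 1409 moved beyond it with the same sign or with no shift to begin with, and 21 turned from a shift to the opposite sign. Without barcodes holding another set's marker, Cxcl14, Lum and Id1 reversed in the Ptprc set (-0.024, -0.13 and -0.25). With doublets removed, Rgs5, Cma1, Fbn1, Creb3l1 and Tinagl1 did in the Ptprc set (-0.57, 5.402, 0.38, 0.016 and -0.19), and Angptl7 and Ccl2 in the Pecam1 set (-0.57 and 0.28). With free RNA subtracted, Tef and Atf5 did in the Pecam1 set (-0.25 and 7.38) and Clmp in the Ptprc set (1.55). In the narrowed sets Sesn1, Cx3cr1 and Ube2c did in the Ptprc set (0.28, 0.54 and -0.12), Ccl2 in the Pecam1 set (2.03, and 0.37 with fewer markers) and Inmt in the Pdgfra set (-1.06). Without dividing barcodes Tyms did in the Ptprc set (-0.067) and Nusap1 in the Pdgfra set (-0.066). The cause was not tested. No paired analysis was possible because each group is 1 library. The 100 UMI minimum leaves genes of low level unmeasured, and the Ptprc set had the fewest measured genes.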
